A study of Mus musculus with 23 samples.

Results

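The genes described here encode the proteins of the cytosolic ribosome. They were taken by symbol: every row named Rpl or Rps followed by a digit, plus Rplp0, Rplp1, Rplp2 and Rpsa, without the Rps6k kinases and without pseudogene rows, at a mean of at least 5 TPM (transcript abundance scaled for transcript length and library). This gave 85 of the 32793 rows of the deposited tables, 51 with an Rpl symbol (large subunit) and 34 with an Rps symbol (small subunit). A further 4 rows matched the symbol rule and fell outside the threshold. Rpl10l, Rpl39l and Rps4l were at 0 TPM, and Rpl3l, a paralog known from muscle, had a mean of 0.046 TPM with 13 counts in all libraries together. The members nearest to the threshold from above were Rpl32l at 12.3 TPM and Rps19bp1 at 55.9 TPM. A symbol does not make a gene a ribosomal protein: Rps19bp1 encodes a protein that binds RPS19, and Rpl7l1, Rpl22l1, Rpl36al, Rps27l and Rps27rt are paralogs or copies of members. Without these 6 rows 79 members remained, 2 of which, Rpl37rt and Rpl32l, are likely copies too.

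The libraries were made from poly(A) RNA of C2C12, a mouse myoblast line that fuses into myotubes when serum is lowered. WT cells and Runx1KO cells were taken while growing (day 0, 20% fetal bovine serum) and 1, 3 and 6 days after a switch to 2% horse serum, which starts differentiation. There were 23 libraries in 8 groups, 2 for WT day 0 and 3 for each of the others. The titles were followed for the last time point, which the series text gives as day 5. The labels do not say how Runx1 was disrupted, whether the Runx1KO cells are 1 clone, or whether replicates were separate cultures, so p-values measure only the spread between these libraries.

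The targeted gene was checked first. Runx1 stood at 118, 119 and 122 CPM (counts scaled to library size, with TMM factors) in day 0 labelled-KO libraries, against 84.0 and 83.9 CPM in WT, and on day 6 at 297, 319.7 and 315 against 146, 148 and 165 CPM. Its mRNA was thus higher, not lower, under the KO label, and directions below are for libraries as labelled. The myoblast markers Myod1, Myf5, Cdh15 and Des were present throughout (Myod1 at 137 TPM or more). The summed level of the myotube markers Myog, Myh3, Acta1 and Ckm was at most 1.28 TPM on day 0, and on day 6 it ran from 1462 to 1832 TPM in WT and from 9565 to 10884 TPM in labelled-KO libraries. Markers of endothelial, epithelial, adipocyte and osteoblast cells were each below 2 TPM in every library. Of 4 macrophage and leukocyte markers only Cd68 exceeded 2 TPM (17.02 TPM at most), and the defining genes Ptprc and Adgre1 were at or near 0. The part of differentiation state in the results on ribosomal protein genes was not tested, and in bulk RNA fewer cells of a type and less RNA per cell cannot be told apart.

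A ribosome is built in the nucleolus from ribosomal RNA and a single copy of most ribosomal proteins, so the supply of the proteins is kept in balance across the set. Their mRNAs are short and among the most abundant of a cell. Many begin with a cytosine followed by a run of pyrimidines, the terminal oligopyrimidine (TOP) tract, through which growth signals acting on mTOR and the RNA-binding protein LARP1 set how strongly the mRNAs are translated. Proliferating myoblasts make ribosomes at a high rate, and the rate falls when the cells leave the cell cycle.

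Promoter sequences from RefSeq (GRCm38.p6, the patch release of the mm10 build) were matched by symbol for 65 of the 85 members. The sequences below run from 60 bases before to 20 bases from the annotated start and are shown because these genes carry the results that follow or show the 2 motifs side by side. Capitals mark a C followed by at least 7 C or T bases within 20 bases of the start, or the core CCGGAAG of ETS factors, a family the series title names. Rps27 (chr3:90213629-90213708, minus strand), Rpl18 (chr7:45718011-45718090, plus strand) and Rps12 (chr10:23787190-23787269, minus strand) have the pyrimidine run, Rpl37 (chr15:5116553-5116632, plus strand) has the ETS core, and Rps27l (chr9:66946026-66946105, plus strand, the upstream of its annotated starts) has both. Rps2 (chr17:24720003-24720082, plus strand) and Rpl7l1 (chr17:46782637-46782716, minus strand) have neither in the part shown.
Rps27: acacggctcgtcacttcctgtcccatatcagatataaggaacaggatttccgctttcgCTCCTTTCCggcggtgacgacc
Rpl18: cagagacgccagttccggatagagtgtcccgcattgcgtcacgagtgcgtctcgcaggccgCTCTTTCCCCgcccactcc
Rps12: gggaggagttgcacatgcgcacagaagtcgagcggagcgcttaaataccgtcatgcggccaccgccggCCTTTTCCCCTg
Rpl37: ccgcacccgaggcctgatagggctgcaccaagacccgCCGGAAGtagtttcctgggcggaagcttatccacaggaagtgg
Rps27l: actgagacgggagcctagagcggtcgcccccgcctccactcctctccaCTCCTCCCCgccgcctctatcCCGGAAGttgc
Rps2: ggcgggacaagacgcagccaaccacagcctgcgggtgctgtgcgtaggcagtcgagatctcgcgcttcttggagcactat
Rpl7l1: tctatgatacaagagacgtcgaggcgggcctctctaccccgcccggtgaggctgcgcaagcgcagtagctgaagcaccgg

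The pyrimidine run was found at the start of 33 of 65 members (50.8%) and of 16.6% of all 27025 genes with a promoter in the table. The ETS core, searched on both strands over 300 bases from 250 before to 50 after the start, was in 25 members (38.5%) and in 9.93% of genes. The core of RUNX sites, TGTGGT, searched in the same way, was in 8 members (12.3%) and in 18.9% of genes, and among the genes printed above in Rpl18, Rps12 and Rps2. Over the same 300 bases Rps2 also held an ETS core. The annotated start may differ from the start used in these cells, and a match describes letters, not a bound site.

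Per length, the members held 15.6% to 19.7% of the transcriptome, and this share was larger late in differentiation. The most abundant were Rpl41, the smallest protein of the large subunit, at 8436 TPM on average, Rps26 at 6827 TPM and Rps2 at 5730 TPM. In all 65 members exceeded 1000 TPM, and all 85 passed the filter on low counts, with no member below 32 counts in any library. The lowest were Rpl32l, Rps19bp1 and Rpl37rt (65.1 TPM). Rps15a was listed at 79.5 TPM only, and rows of its pseudogenes Rps15a-ps4 and Rps15a-ps6 stand beside it in the table, so its reads may be split. The pseudogene row Rpl34-ps1, excluded by the rule, held 595 to 941 TPM, and a division of reads between it and Rpl34 cannot be told apart from the files.

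The members' summed share of TPM was 15.6 and 16.1% in WT and 16.0, 16.3 and 16.1% in labelled-KO libraries on day 0. On day 1 it was 15.9, 16.2 and 16.1% against 16.3, 16.3 and 16.2%, and on day 3 16.4, 16.5 and 17.4% against 16.4, 17.4 and 18.1%. The day 6 values were 19.7, 19.5 and 17.04% in WT and 17.6, 17.5 and 17.7% under the KO label. All 6 day 6 libraries lay above all 5 day 0 libraries, and the genotypes overlapped on each of the 4 days. As a share of the estimated counts, which weigh long mRNAs more, the members held 4.93% to 6.29%, and the lowest value was that of WT day 6 replicate 3. On the count scale day 0 and day 6 overlapped.

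**Figure D1:**
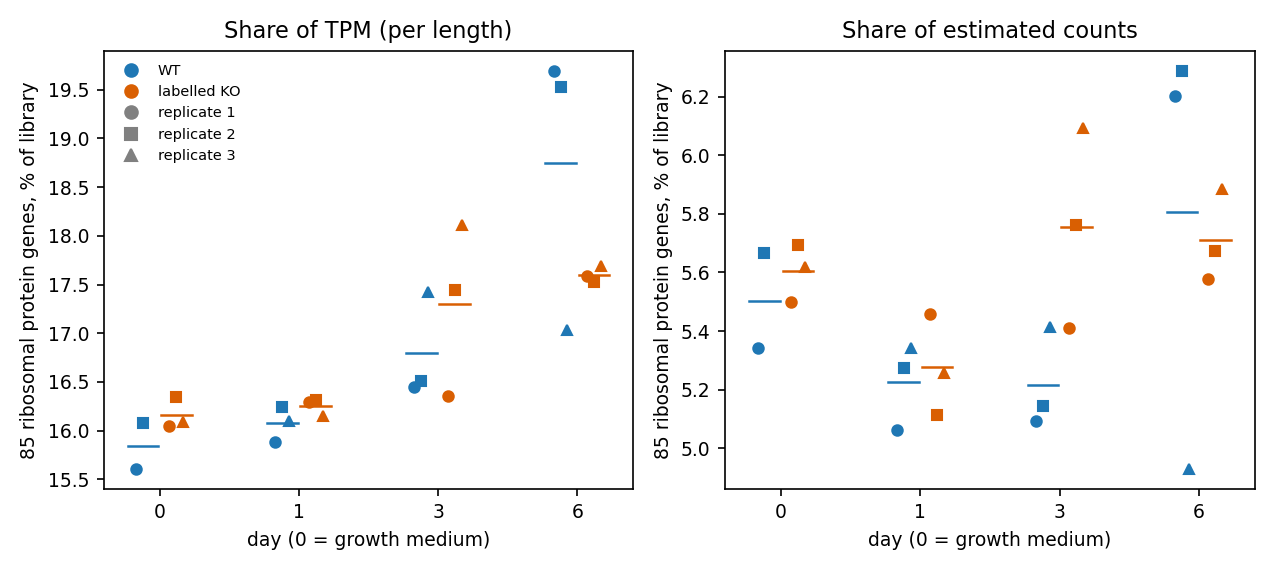
Summed share of the 85 ribosomal protein genes in each library, as a percentage of TPM (left) and of estimated counts (right), by day; points are libraries and short lines are group means, and both vertical axes start above 0. WT replicates 1 and 2 reach 19.7% and 19.5% of TPM on day 6, while replicate 3 is at 17.04% and has the lowest share of counts, 4.93%.

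Some libraries stood apart. Within WT day 6, 74 of 85 members were lowest in replicate 3 by TPM, and in the other groups no library was lowest for more than 73 members (labelled KO day 3 replicate 1). Across other genes the deviation of WT day 6 replicate 3 from its group rose with length (r = 0.60), and that of labelled KO day 1 replicate 2 fell with GC content (r = -0.78). The first correlation is over 11005 genes and the second over those of them with a known GC content. Genes are not independent replicates.

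The first comparison asked how the genotypes differed at each time point. Most ribosomal protein genes passed the test on no day, and among those that did on days 0, 1 and 3 more were higher than lower under the KO label, by small amounts. With edgeR's quasi-likelihood test (adjusted by Benjamini-Hochberg over 14187 genes), 7 of 85 members were higher and none lower on day 0, where 17.5% of all genes were called, 7.36% higher and 10.1% lower. That day 13 members had an unadjusted p under 0.05. Without labelled KO replicate 1, 2 or 3 in turn, 19, 12 and 13 members had such a p. Beside these stood 3940 of 14172, 3523 of 14176 and 3380 of 14172 tested genes. DESeq2 called 11 members on day 0, all higher, and its share of all genes is given further below. On day 1, 14 members were higher and 3 lower, where 42.2% of all genes were called, 22.9% higher and 19.2% lower. On day 3, 30 members were higher and none lower, where 43.2% of all genes were called, 24.0% higher and 19.2% lower. On day 6, 8 members were higher and 5 lower, where 42.9% of all genes were called, 22.0% higher and 20.8% lower. The median log2 fold change (log2FC) of the members was 0.10, 0.072, 0.21 and 0.036 on days 0, 1, 3 and 6, beside -0.0011, 0.029, 0.04 and 0.0037 for all genes tested. In both directions together the share of members called was below that of all genes on each day, while on day 3 the share called higher was 35.3% of members and 24.0% of all genes, a difference that was not tested. In total 46 members were called on no day, a count whose match over all genes is not given here.

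Rpl30 and Rpl37, both of the large subunit, were the only members higher under the KO label on all 4 days. On day 3 Rpl30 was at 480.2, 514 and 563 CPM in labelled-KO libraries and at 342, 346 and 369 CPM in WT, and the groups did not overlap. In the order of days 0, 1, 3 and 6, its log2FC was 0.37 (SE 0.10, adjusted p = 0.015), 0.44 (SE 0.092, adjusted p = 0.000462), 0.56 (SE 0.092, adjusted p = 3.02e-05) and 0.32 (SE 0.092, adjusted p = 0.00654). RPL30 is known, outside the ribosome, for a role in selenocysteine insertion. Rpl37, a zinc-finger protein of the 60S subunit, stood at 662, 591 and 615 CPM against 483, 476 and 378 CPM on day 6. Its log2FC was 0.43 (SE 0.097, adjusted p = 0.00264), 0.26 (SE 0.086, adjusted p = 0.0171), 0.49 (SE 0.086, adjusted p = 6.54e-05) and 0.48 (SE 0.086, adjusted p = 7.67e-05) on the 4 days in turn. In all 4 comparisons every library labelled KO was above every WT library for both genes, which were named because of these calls. How many of all genes separate in this way, or are higher on all 4 days, is not given. Some of these calls rest on single libraries. Without WT day 0 replicate 1 the day 0 adjusted p was 0.252 for Rpl30 and 0.0546 for Rpl37, and without WT day 6 replicate 3 that of Rpl30 on day 6 was 0.1. The day 1 call of Rpl37 was lost without WT replicate 1 or 2 or labelled KO replicate 1 (adjusted p = 0.0703, 0.0699 and 0.0743) and with an offset for GC content (0.158).

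**Figure D2:**
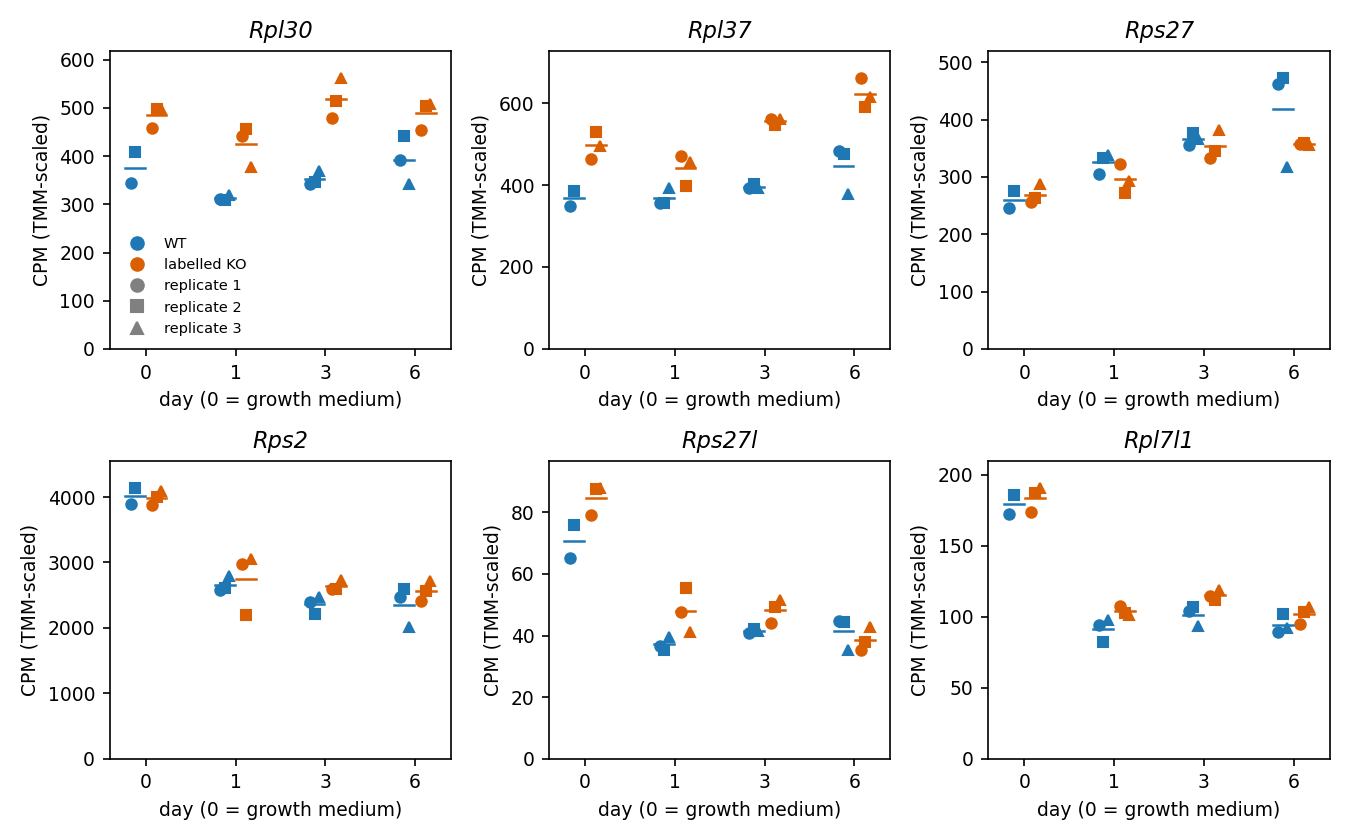
Level of 6 members in each library in TMM-scaled CPM, by day; points are libraries, short lines are group means and each vertical axis starts at 0. Rpl30 and Rpl37 are higher under the KO label on each day, Rps27 is higher from day 1 onwards in WT, and Rps2, Rps27l and Rpl7l1 fall between day 0 and day 1.

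A further 7 members were higher under the KO label on 3 days: Rpl9, Rplp2, Rps3, Rps13, Rps15, Rps15a and Rpsa. Of all genes 22.0% to 24.0% were higher on each of days 1, 3 and 6, and the share higher on 3 days is not given. On day 3, the day with most calls, Rps15 stood at 963, 1036 and 1082 CPM against 683, 709 and 732 CPM, a log2FC of 0.54 (SE 0.12, adjusted p = 0.000803). RPS15 is needed for export of the small subunit from the nucleus. Rpsa, which encodes a small-subunit protein also described as a laminin receptor, stood at 2954, 3015 and 3188 CPM against 2173, 2219 and 2263 CPM on that day (log2FC 0.46, SE 0.095, adjusted p = 0.000392). Of the 30 members called on day 3, 18 had an Rpl and 12 an Rps symbol, which is 35.3% of each; Rps19bp1, no ribosomal protein, was among the 12, and without it 11 of 33 (33.3%) were called. The day 3 calls ranged from 0.20 (Rps9) to 0.56 (Rpl30), and 2 of them, Rpl30 and Rps15, reached an absolute log2FC of 0.5. On day 0 Rps15a was the third in size, at 0.33 (SE 0.11, adjusted p = 0.0425), and that call was lost under several settings, among them without WT replicate 1 (adjusted p = 0.308).

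Rpl10 was lower under the KO label on days 1 and 6. RPL10 joins the large subunit last, in the cytoplasm, and completes its active site. On day 1 it was at 1111, 1039 and 1115 CPM against 1314, 1343 and 1352 CPM in WT (log2FC -0.30, SE 0.083, adjusted p = 0.00593). On day 6 it was at 939, 1092 and 1085 against 1359, 1466 and 1121 CPM (log2FC -0.34, SE 0.083, adjusted p = 0.00183). The groups did not overlap on either day, nor on days 0 and 3. On days 0 and 3 its values were -0.22 (adjusted p = 0.114) and -0.19 (adjusted p = 0.0677). The other members lower on day 6 were Rpl23a (-0.30, SE 0.11, adjusted p = 0.0268), a docking site for nascent-chain factors, Rps12 (-0.29, SE 0.078, adjusted p = 0.00454), Rps21 (-0.24) and the X-linked Rps4x (-0.24, SE 0.073, adjusted p = 0.0101). Rps12 was at 639, 597 and 661 CPM against 827, 809 and 682 CPM, without overlap, whereas the libraries overlapped for Rpl23a. Rpl18 was higher on day 6 (0.37, SE 0.12, adjusted p = 0.0145), at 751, 783 and 829 against 636, 681 and 515 CPM. That call was lost without WT replicate 3 (adjusted p = 0.134) or labelled KO replicate 3 (0.0566). The Rpl23a call was lost without WT replicate 1 or 2 or labelled KO replicate 1 or 2 (0.0601, 0.182, 0.0671 and 0.0775), and that of Rps4x without WT replicate 2 (0.0577).

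The day 6 comparison changed without WT day 6 replicate 3. Without it, 1 member was higher under the KO label (Rpl37, 0.34) and 20 were lower, where 5664 of 14152 tested genes were called. The lower members then included Rpl10 (-0.48), Rpl23a (-0.47), Rpl17 (-0.45), Rps21 (-0.43) and Rps27 (-0.42). The members' median moved from 0.036 to -0.11. Calls on day 0 depended on WT replicate 1, without which no member was called by edgeR, and on WT replicate 2 and labelled KO replicates 2 and 3, without which 3, 2 and 3 were called; in these 4 fits 8.69%, 10.3%, 13.2% and 12.4% of all genes were called. On day 1, 8 and 11 members were called without WT replicates 1 and 2 (36.6% and 34.2% of all genes), and 14 higher and 1 lower without labelled KO replicate 2 (38.6%). On day 3, 15 and 16 were called without WT replicate 2 and labelled KO replicate 3 (36.8% and 36.6%).

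Length and scaling mattered for these short genes. The members' length, read from the ratio of counts to TPM, was 0.18 times that of the median gene, and their median GENCODE transcript was 696.5 bases against 2184 for genes in general. With an offset that removes the trend with length in each library, the genotype calls were 15 higher and 6 lower on day 3 and 13 higher and 12 lower on day 6, where 44.7% of all genes were called on day 3, 21.7% higher, and 45.7% on day 6, 24.0% higher. On the authors' TPM scale (limma on log2(TPM + 1)) they were 6 higher and 3 lower on day 0, 15 higher and 7 lower on day 1, 12 higher and 4 lower on day 3 and 4 higher and 21 lower on day 6. Of all genes 4.58%, 15.9%, 14.0% and 15.1% were then higher and 10.1%, 20.8%, 26.8% and 28.1% lower on these days. The TPM scale moved the median of all genes by up to 0.12, on day 3, and relative to that median the members stood at 0.14 on day 3 and 0.0047 on day 6. With library size alone the split was 4 higher and 1 lower on day 0 and 6 higher and 13 lower on day 6, beside 18.2% of all genes called on day 0, 5.36% higher, and 43.1% on day 6, 18.1% higher. Among the 5110 other genes in the members' range of length the median on day 3 was 0.087, against 0.21 for the members. Rpl37 kept a positive, called difference on days 0, 3 and 6 under each of these scalings, and Rpl30 on days 0, 1 and 3.

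**Figure D3:**
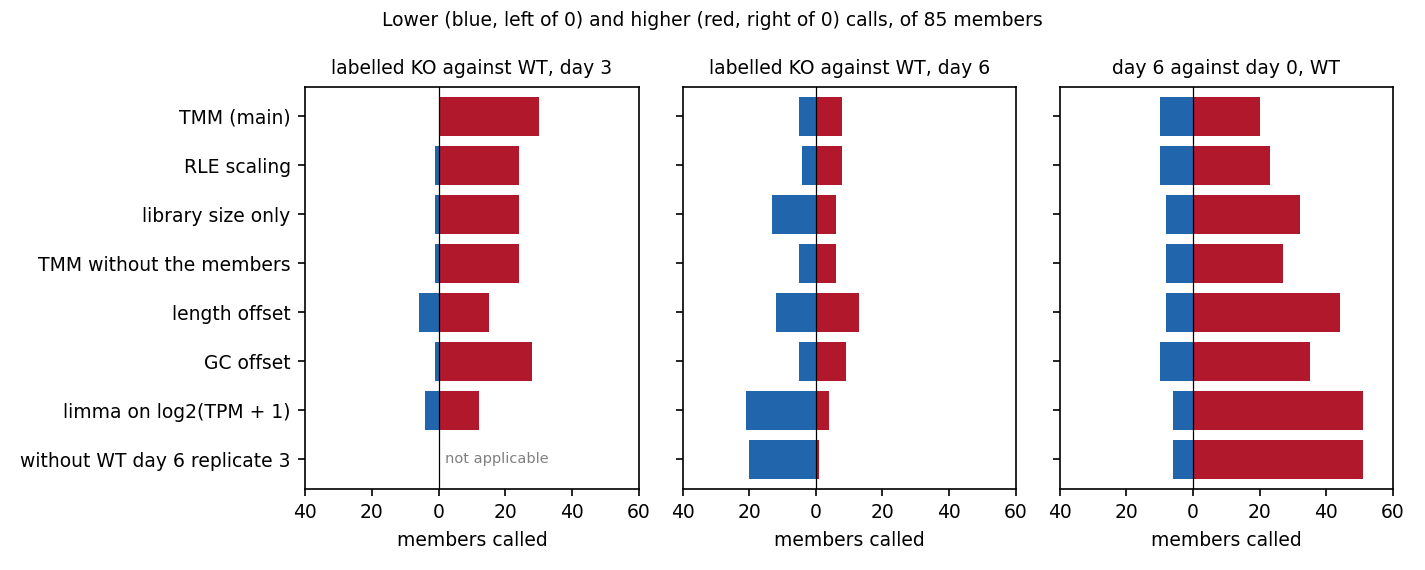
Members called lower (blue, to the left of 0) and higher (red, to the right) at an adjusted p under 0.05 in 3 comparisons under 8 settings, of 85 members. The day 3 genotype difference goes from 30 higher and none lower with TMM to 15 higher and 6 lower with the length offset, and the day 6 difference turns to 1 higher and 20 lower without WT day 6 replicate 3.

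The second comparison followed the members from growth medium through differentiation within each genotype. Most moved little, while Rpl7l1, Rps27l, Rps19bp1 and Rps2 fell at once and stayed low. In WT, 2 members were higher and 17 lower on day 1, where 54.7% of all genes were called, 27.1% higher and 27.6% lower. On day 3, 2 members were higher and 16 lower, beside 58.2% of all genes called, 29.2% higher and 29.0% lower, and on day 6, 20 were higher and 10 lower, beside 63.6%, 32.6% and 31.1%. Under the KO label 2 members were higher and 21 lower on day 1, beside 52.3% of all genes called, 27.2% higher and 25.2% lower. On day 3, 9 were higher and 9 lower, beside 57.6%, 30.4% and 27.2%, and on day 6, 11 were higher and 12 lower, beside 70.0%, 36.6% and 33.5%. The median log2FC was -0.12, -0.053 and 0.11 in WT and -0.16, 0.06 and 0.042 under the KO label, beside 0.015, 0.021, 0.047, 0.035, 0.046 and 0.047 for all genes. The 3 days share their day 0 libraries within a genotype. In each of the 6 comparisons a smaller share of members than of all genes was called.

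**Figure D4:**
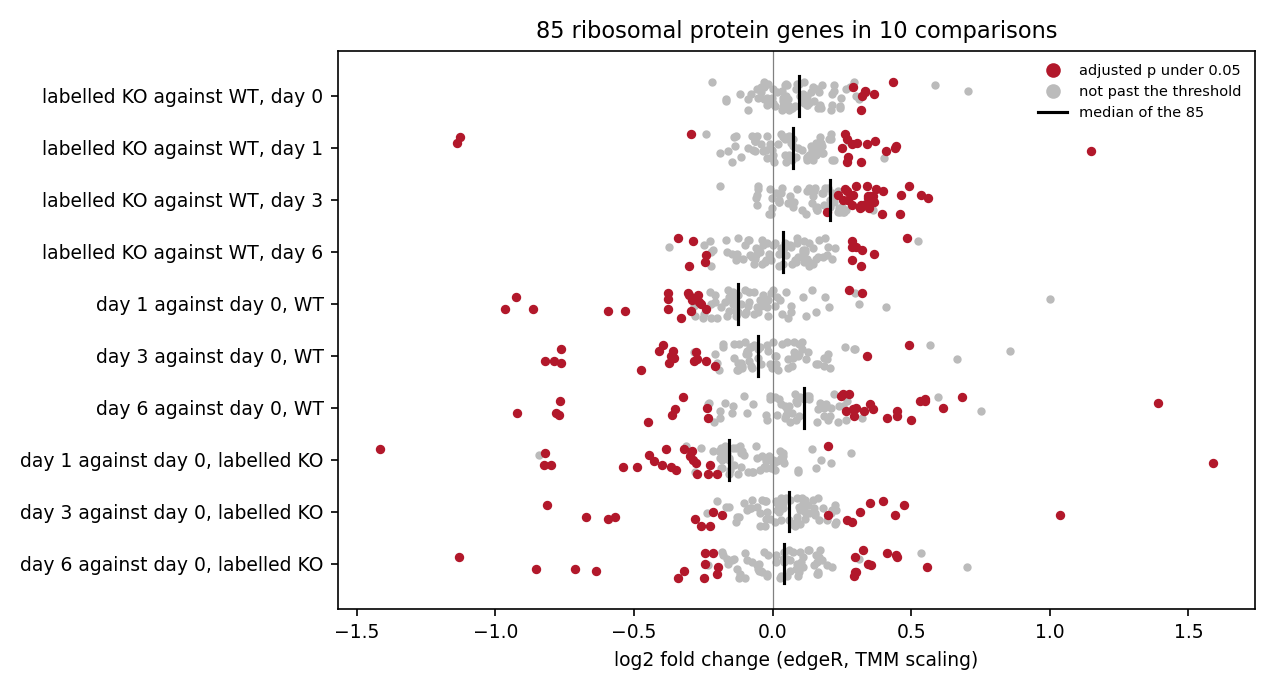
Log2 fold change of each of the 85 ribosomal protein genes in 10 comparisons (edgeR, TMM scaling); red points passed an adjusted p of 0.05, grey points did not, and black lines are medians. Most points lie within 0.5 of 0, the day 3 genotype difference has its 30 calls on the higher side, and a few members lie near -0.8 in the time comparisons.

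The 7 members called lower on every day in both genotypes were Rpl6, Rpl7l1, Rpl8, Rps2, Rps19bp1, Rps27l and Rpsa. Of all genes 25.2% to 33.5% were lower in each of the 6 comparisons, and the share lower in all 6 is not given. Rps2, one of the most abundant, stood at 3892 and 4142 CPM in WT on day 0 and at 2583, 2608 and 2798 CPM on day 1, and at 2465, 2597 and 2008 CPM on day 6. In labelled-KO libraries it went from 3879.8, 3995 and 4094 to 2981, 2196 and 3053 and 2416, 2570.2 and 2715 CPM. Every later library was below every day 0 library. Its log2FC on days 1, 3 and 6 was -0.59, -0.76 (SE 0.11, adjusted p = 2.67e-06) and -0.77 (SE 0.11, adjusted p = 1.85e-06) in WT, and -0.54, -0.59 and -0.64 under the KO label. RPS2 sits at the mRNA entry of the small subunit. Rpl8, of the core of the large subunit, was at 1421 ± 89.4 CPM (SD, n = 2) on day 0 and 982 ± 27.7 CPM (SD, n = 3) on day 1 in WT, a log2FC of -0.53 (SE 0.094, adjusted p = 4.62e-05). Rpsa fell by less (-0.33, -0.48 and -0.45 in WT), as did Rpl6 (-0.26, -0.37 and -0.24).

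Some paralogs passed the test where their partners did not; the differences between paralogs were not tested. Rpl7l1, whose product is found with assembling large subunits, was at 172 and 186 CPM on day 0 in WT and at 94.2, 82.5 and 98.1 CPM on day 1 (log2FC -0.97, SE 0.085, adjusted p = 1.5e-09), and by day 6 the values were -0.92 in WT and -0.85 under the KO label. Its partner Rpl7 had -0.041 (adjusted p = 0.768) on day 1 and 0.052 (0.679) on day 6 in WT. Rps27l, a paralog of Rps27 known as a p53 target, was at 65.1 and 76.0 CPM on day 0 and 36.5, 35.3 and 39.7 CPM on day 1 in WT, and at 79.0, 87.5 and 88.0 and 47.5, 55.4 and 41.1 CPM under the KO label. Its log2FC on day 6 was -0.77 (SE 0.12, adjusted p = 4.36e-06) in WT and -1.13 (SE 0.11, adjusted p = 1.79e-09) under the KO label. Between genotypes Rps27l was called on day 1 (0.37, SE 0.11, adjusted p = 0.00753), and that call was lost without labelled KO replicate 2 (adjusted p = 0.081) and with the GC offset (0.299). Rps19bp1 was at 29.8 and 32.2 CPM on day 0 and 15.3, 17.5 and 18.3 CPM on day 1 in WT, a log2FC of -0.86 (SE 0.12, adjusted p = 1.1e-06). It was higher under the KO label on day 3 (0.33, SE 0.11, adjusted p = 0.0146), a call lost with the length offset (0.137) and without WT replicate 3 (0.108).

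Rps27, the partner of Rps27l, rose in WT. It stood at 246 and 275 CPM on day 0 in WT, at 305, 333 and 338 on day 1, 356, 377 and 367 on day 3 and 463, 473 and 318 on day 6. Every later WT library was above both day 0 libraries. The log2FC was 0.32 (SE 0.12, adjusted p = 0.0254), 0.49 (SE 0.12, adjusted p = 0.00115) and 0.68 (SE 0.12, adjusted p = 3.13e-05), and the day 1 call was lost without WT day 0 replicate 1 or day 1 replicate 3 (adjusted p = 0.124 and 0.0686). Rps27 under the KO label was at 255, 263 and 287 CPM on day 0 and 358, 359 and 356 CPM on day 6, with 0.14 (adjusted p = 0.28) on day 1, 0.40 (SE 0.11, adjusted p = 0.00258) on day 3 and 0.41 (SE 0.11, adjusted p = 0.00133) on day 6. RPS27 and RPS27L are alternative zinc-finger proteins of the small subunit. Per length, Rps27 was the more abundant of the pair, with a lowest, median and highest level over all libraries of 2579, 3728 and 5469 TPM against 184, 226 and 397 TPM for Rps27l.

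Of the other pairs, Rpl22 was higher on day 6 in WT (0.45, SE 0.11, adjusted p = 0.00119) and under the KO label (0.30, SE 0.098, adjusted p = 0.00965). Its paralog Rpl22l1 passed the test in none of the 10 comparisons, with a largest value of 0.40 (adjusted p = 0.0721) between genotypes on day 1, where the libraries labelled KO stood at 20.2, 37.8 and 19.4 CPM. Rpl36al was lower than on day 0 on days 1, 3 and 6 of the KO label (-0.23, -0.26 and -0.25, adjusted p = 0.0378, 0.0199 and 0.0203). Each of these calls was lost with library size alone and on the TPM scale, and without labelled KO day 0 replicate 2 or 3. Rpl36a passed in no comparison, with 0.031 (0.862) on day 6 under the KO label. Rpl3, the partner of Rpl3l, passed in none either, and lay between -0.091 and 0.14.

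By day 6, 10 members were higher than on day 0 in both genotypes, among them Rpl17, Rpl22, Rpl23, Rpl37, Rpl38, Rpl39, Rps14, Rps18 and Rps27. Of all genes 32.6% were higher by then in WT and 36.6% under the KO label, and the share higher in both is not given. Rpl17, which lines part of the exit tunnel, went from 637 and 670.3 CPM to 1136, 1154 and 714 CPM in WT (log2FC 0.61, SE 0.14, adjusted p = 0.000411) and had 0.34 under the KO label. Its value of 0.34 on day 3 in WT was not called without either day 0 library or without day 3 replicate 3 (adjusted p = 0.107, 0.0895 and 0.0948). Rpl38, known for its part in the translation of Hox mRNAs in the embryo, went from 126 and 155 to 229, 242 and 145 CPM in WT (0.55) and had 0.45 (SE 0.14, adjusted p = 0.00732) under the KO label. Rpl39, a small protein lining the exit tunnel, went from 96.0 and 111 to 159, 173 and 123 CPM (0.55, SE 0.15, adjusted p = 0.00218). Under the KO label it rose by 0.30 by day 6, a call lost without any of labelled KO day 0 replicates 1, 2 and 3 or day 6 replicates 2 and 3 (adjusted p = 0.0662 to 0.178). Rps14 had 0.45 (SE 0.12, adjusted p = 0.00245) under the KO label by day 6. In each of these 10 members WT replicate 3 was below the other 2 WT libraries of day 6. Lower in both genotypes by day 6 were Rpl6, Rpl7l1, Rpl8, Rpl27, Rplp0, Rps2, Rps19bp1, Rps27l and Rpsa. Of all genes 31.1% were lower in WT and 33.5% under the KO label, and the share lower in both is not given either. Of the 7 of the rising and 8 of the falling members with a promoter in the table, 4 and 1 had the pyrimidine run, which is a description of few genes.

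Rpl10 was higher than on day 0 in WT after 1 day (0.28, SE 0.093, adjusted p = 0.0146) and again by day 6 (0.25, SE 0.093, adjusted p = 0.0207) and under the KO label on day 1 (0.20, SE 0.083, adjusted p = 0.047). The first was lost without WT day 0 replicate 1 (adjusted p = 0.0769), the second without that library or day 6 replicate 2 (0.0967 and 0.119), and the third under RLE scaling (0.0509), with TMM without the members (0.0529), with no filter (0.126), with the replicate block (0.052) and without any 1 of 5 libraries. A fit to just the libraries of each contrast lost its calls on day 6 in WT and day 1 under the KO label too (adjusted p = 0.0962 and 0.0714), as was the WT day 6 call of Rps4x (0.0673). Rps4x was higher by day 6 in WT (0.26, SE 0.083, adjusted p = 0.00797) and on day 3 under the KO label (0.20, SE 0.073, adjusted p = 0.0242), the latter lost under RLE scaling (adjusted p = 0.052), with TMM without the members (0.0582), with no filter (0.168) and without any 1 of labelled KO day 0 replicates 1 and 3 and day 3 replicates 2 and 3 (0.0628 to 0.0903).

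The direction of the set over time depended on the treatment of length. With the length offset the WT calls were 8 higher and 13 lower on day 1, 20 higher and 12 lower on day 3 and 44 higher and 8 lower on day 6, and under the KO label 6 higher and 17 lower, 9 higher and 17 lower and 29 higher and 7 lower. Of all genes 31.0%, 33.3% and 37.4% were then higher and 25.9%, 27.2% and 28.5% lower in WT, and 28.8%, 31.7% and 40.4% higher and 24.8%, 27.8% and 30.9% lower under the KO label. On the TPM scale they were 9 higher and 7 lower, 26 higher and 10 lower and 51 higher and 6 lower in WT. The TPM scale gave, under the KO label, 10 higher and 10 lower, 27 higher and 5 lower and 35 higher and 6 lower. On that scale 31.2%, 35.5% and 39.4% of all genes were higher in WT and 31.9%, 32.2% and 39.1% under the KO label, and at most 27.4% were lower in any of the 6. Library size alone gave 4 higher and 12 lower, 4 higher and 13 lower and 32 higher and 8 lower in WT and 4 higher and 15 lower, 21 higher and 5 lower and 20 higher and 8 lower under the KO label, with 30.1% to 39.2% of all genes higher and 20.6% to 30.4% lower. RLE scaling gave 4 higher and 14 lower on day 1 in WT and 7 higher and 11 lower on day 3 under the KO label, and the GC offset 35 higher and 10 lower and 26 higher and 10 lower on day 6. In these 4 cases in turn 28.4% of all genes were higher and 26.2% lower, 29.2% and 28.9%, 38.3% and 29.4%, and 41.3% and 31.3%. Relative to the median of all genes, the members' median on the TPM scale was -0.075, -0.011 and 0.15 on days 1, 3 and 6 in WT. The falls of Rpl7l1 and Rps27l on all days, those of Rps2 on day 3 in both genotypes and day 6 in WT, and the rises of Rps27 passed the test under each of these scalings. Without WT day 6 replicate 3, 51 members were higher and 6 lower by day 6 in WT (62.0% of all genes called), and without WT day 0 replicate 1, 16 members were called in place of 30 (53.6%). In WT, 8, 12 and 10 members were called on day 1 without day 0 replicate 2, day 1 replicate 1 and day 1 replicate 2 (41.4%, 50.7% and 49.8% of all genes), and 10 on day 3 without day 0 replicate 2 (44.8%). Under the KO label 10 and 11 were called on day 3 without day 0 replicate 3 and day 3 replicate 2 (51.3% and 52.6%), and 3 were higher and 21 lower on day 1 without day 1 replicate 2 (53.7%).

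Whether the change over time differed between genotypes was tested by the interaction of the 2. No member was called by edgeR on day 1, where 3.95% of all genes were (2.64% higher and 1.31% lower), on day 3, where 10.7% were (6.65% and 4.06%), or on day 6, where 13.0% were (7.54% and 5.42%). In turn 3, 0 and 4 members had an unadjusted p under 0.05. Without labelled KO replicate 1 of the same day, 3, 2 and 4 members had such a p. Beside these stood 3138 of 14181, 3139 of 14177 and 3517 of 14150 tested genes. DESeq2 called 0, 0 and 1 members, and for day 6 its share of all genes is given further below. Without WT day 6 replicate 3, 15 members had a lower change under the KO label by day 6 and none a higher one (13.0% of all genes called). Among these were Rps27l (-0.52), Rpl23a (-0.52), Rpl17 (-0.52), Rps27 (-0.48) and Rps12 (-0.48). With all libraries the members' median interaction on day 6 was -0.083, and without that library it was -0.26.

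Some rows are near-identical copies, and reads may be divided between them and their parents. Rps27rt and Rpl37rt, retrotransposed copies of Rps27 and Rpl37, and Rpl32l had the extreme values of several comparisons and are reported as uncertain. Rpl37rt was at 7.80, 1.42 and 14.3 CPM on day 1 under the KO label and at 17.04, 13.7 and 20.3 CPM in WT (log2FC -1.13, SE 0.45, adjusted p = 0.0497), and Rps27rt at 4.29, 1.67 and 5.28 against 7.22, 9.97 and 7.43 CPM (-1.14, SE 0.38, adjusted p = 0.02). Rpl32l went the other way, at 3.92, 9.29 and 2.28 against 2.76, 2.67 and 1.58 CPM (1.15, SE 0.34, adjusted p = 0.00817). In each of the 3 genes labelled KO replicate 2, the library whose deviation fell with GC content, was the most extreme. Without it the adjusted p was 0.196, 0.102 and 0.279. The day 1 call of Rpl37rt was also lost without WT replicate 1, 2 or 3 or labelled KO replicate 1 (0.084, 0.0528, 0.138 and 0.088). With DESeq2 (0.0829) and in a fit to just the libraries compared (0.147) it was lost too. That of Rps27rt was lost without WT replicate 2 (0.0789). The Rpl32l call was lost without WT replicate 3 (0.0506) and in the fit to just the libraries compared (0.106). Over time Rpl32l had 1.59 (SE 0.35, adjusted p = 0.000559) on day 1 under the KO label, Rpl37rt -1.42 (SE 0.45, adjusted p = 0.0114) and Rps27rt 1.39 (SE 0.43, adjusted p = 0.00737) by day 6 in WT. That last call was lost without WT day 0 replicate 1 (0.0941). The Rpl37rt call was lost without labelled KO day 1 replicate 2, at -0.90 (adjusted p = 0.05001), without labelled KO day 0 replicate 2 (0.0534) and in a fit to just the libraries compared (0.0829). Without labelled KO day 1 replicate 2 the Rpl32l value was 0.85 (adjusted p = 0.0126).

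Genes of the machinery that builds ribosomes were lower on every day of differentiation in nearly all cases. A list of 40 ribosome biogenesis genes covered nucleolar proteins, small nucleolar ribonucleoproteins and assembly factors. In WT 38 were lower on day 1, 38 on day 3 and 36 on day 6, with 0, 0 and 1 higher. Under the KO label 38, 36 and 38 were lower, with 0, 0 and 1 higher. The share called was 95%, 95% and 92.5% in WT and 95%, 90% and 97.5% under the KO label, beside 54.7%, 58.2% and 63.6%, and 52.3%, 57.6% and 70.0%, of all genes. Of all genes 27.6%, 29.0% and 31.1%, and 25.2%, 27.2% and 33.5%, were lower. The list's median log2FC was -1.29, -1.26 and -1.29 in WT and -0.97, -1.05 and -1.20 under the KO label, beside member medians between -0.16 and 0.11. Dkc1, the pseudouridine synthase of box H/ACA particles, went from 79.3 and 92.5 CPM to 21.2, 18.3 and 20.5 CPM in WT on day 1 (-2.10, SE 0.12, adjusted p = 2.88e-12). Nop56, a core protein of box C/D particles, went from 178 and 223 to 45.9, 53.4 and 44.5 CPM by day 6 (-2.07, SE 0.12, adjusted p = 4.62e-13). The rRNA processing factor Rrp12 fell by 1.61 on the log2 scale on day 1 under the KO label.

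Between genotypes 7 of the 40 biogenesis genes passed the test on day 0 and 31 on day 1, and all of these were higher under the KO label. In order the counts were 7, 31, 27 and 18 higher and 0, 0, 0 and 1 lower on days 0, 1, 3 and 6, the last being Nop10, a box H/ACA protein gene named after its values were seen (-0.47, SE 0.11, adjusted p = 0.00106), with list medians of 0.22, 0.52, 0.37 and 0.24. The share called was 17.5%, 77.5%, 67.5% and 47.5% of the list, beside 17.5%, 42.2%, 43.2% and 42.9% of all genes. Ddx21, a nucleolar helicase, was at 152, 195 and 142 CPM against 88.9, 75.9 and 85.4 CPM on day 1 (0.97, SE 0.11, adjusted p = 1.64e-07). Nhp2 was at 47.5, 43.2 and 46.9 against 26.5, 28.1 and 24.1 CPM on day 3 (0.80, SE 0.11, adjusted p = 4.35e-06), and Rrp12 at 41.2, 39.6 and 42.5 against 13.3, 12.8 and 17.4 CPM on day 6, a 2.83-fold difference (adjusted p = 6.06e-08). Without WT day 6 replicate 3, 13 biogenesis genes were higher and 1 lower on day 6. Together these were 35% of the list, below the share of all genes called in that fit (5664 of 14152, of which 2646 higher). Without labelled KO day 1 replicate 2, 26 were higher and 0 lower on day 1, 65% of the list beside 38.6% of all genes.

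**Figure D5:**
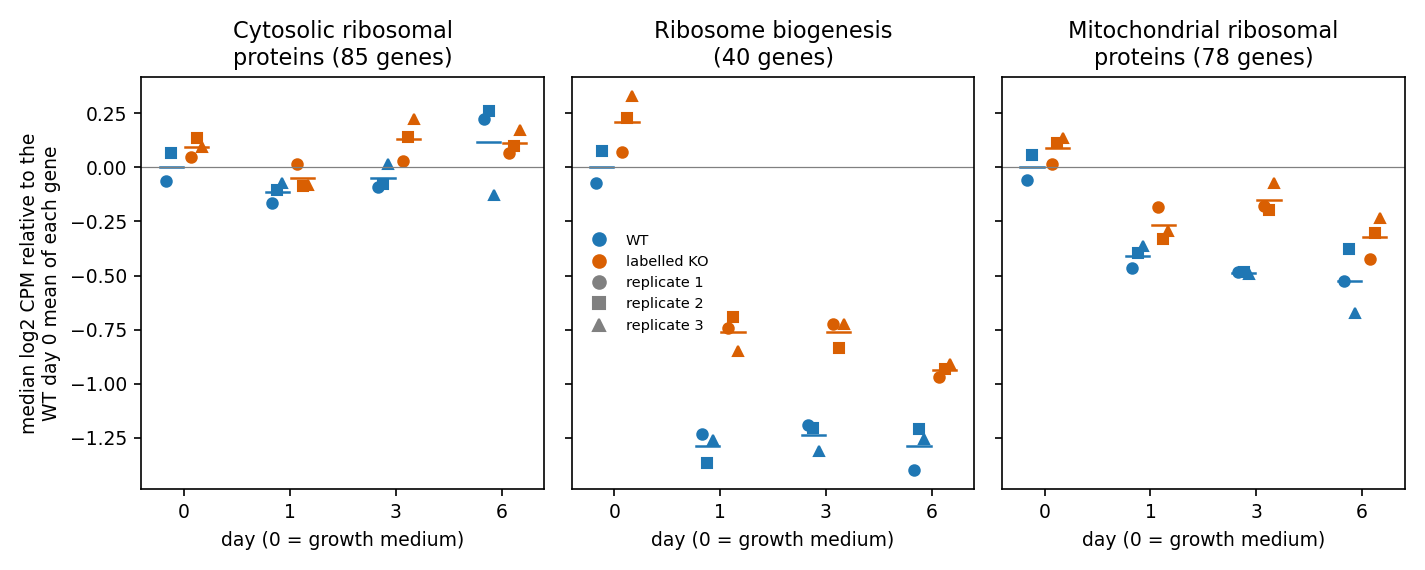
Median log2 CPM per library, relative to each gene's WT day 0 mean, for the cytosolic ribosomal proteins, the ribosome biogenesis list and the mitochondrial ribosomal proteins, by day; points are libraries and short lines are group means. The biogenesis genes lie between -1.40 and -0.69 from day 1 onwards, while the cytosolic ribosomal proteins stay between -0.16 and 0.26.

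Of the 20 measured genes of RNA polymerase I and its factors, which transcribe ribosomal RNA, 16, 14 and 14 were lower on days 1, 3 and 6 in WT and 13, 11 and 12 under the KO label, and none was higher. Of all genes 27.6%, 29.0% and 31.1% were lower in WT and 25.2%, 27.2% and 33.5% under the KO label. Polr1e and Polr1b fell furthest in WT on day 1, with a log2FC of -1.33 (SE 0.16, adjusted p = 2.87e-07) and -1.15 (SE 0.12, adjusted p = 2.21e-08). Between genotypes 2, 8, 8 and 8 of them were higher under the KO label on days 0, 1, 3 and 6 and none lower. Of all genes 7.36%, 22.9%, 24.0% and 22.0% were higher, below the 10% and 40% of the list, a difference that was not tested. In both directions together these shares of the list lay below the 17.5%, 42.2%, 43.2% and 42.9% of all genes called. On day 6, 6 were higher and 1 lower without WT replicate 3, and without labelled KO day 1 replicate 2, 7 were higher on day 1. Each was, in both directions together, 35% of the list, below the share of all genes called (5664 of 14152 and 38.6%). Of all genes 2646 of 14152 and 2797 of 14171 were higher in these fits. Polr1a, the largest subunit, was at 0.83 (SE 0.085, adjusted p = 3.08e-08) on day 6.

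Among 20 other transcripts known for a TOP tract, mostly mRNAs of translation factors, 10, 9 and 9 were lower and 5, 3 and 4 higher on days 1, 3 and 6 in WT. Under the KO label 7, 8 and 9 were lower and 5, 3 and 5 higher. The share called in WT was 75%, 60% and 65%, beside 54.7%, 58.2% and 63.6% of all genes, and under the KO label 60%, 55% and 70%, beside 52.3%, 57.6% and 70.0%, so on days 3 and 6 it was near that of all genes. The histone chaperone gene Nap1l1 (-0.80, SE 0.12, adjusted p = 3.8e-06) and Hnrnpa1 (-0.84, SE 0.14, adjusted p = 9.23e-06) fell by day 6 in WT. Between genotypes 3, 10, 12 and 8 were higher and 0, 2, 0 and 1 lower under the KO label, which was 15%, 60%, 60% and 45% of the list beside 17.5%, 42.2%, 43.2% and 42.9% of all genes, so near the latter on days 0 and 6. Among them were Pabpc1, the poly(A)-binding protein gene, on day 0 (0.49, SE 0.069, adjusted p = 1.49e-05) and Naca on day 6 (0.88, SE 0.098, adjusted p = 1.05e-07). The day 6 split was 5 higher and 3 lower without WT replicate 3, and without labelled KO day 1 replicate 2 that of day 1 was 6 higher and 2 lower. That was 40% of the list in both, near the share of all genes called (5664 of 14152 on day 6 and 38.6% on day 1). Fau and Rack1 encode ribosomal proteins and lie outside the symbol rule. Neither was called between genotypes. Fau rose by day 6 in WT (0.60, SE 0.14, adjusted p = 0.000852) and under the KO label (0.57, SE 0.13, adjusted p = 0.000308), and Rack1 by 0.29 and 0.27.

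Of 20 measured regulators of ribosomal protein mRNA and synthesis, 7, 9 and 9 were lower and 1, 3 and 3 higher over time in WT, and 8, 9 and 8 lower and 3, 1 and 5 higher under the KO label. The share called, 40%, 60% and 60% in WT and 55%, 50% and 65% under the KO label, was near or below that of all genes given above. Myc, a driver of ribosome synthesis, fell on day 1 in WT from 179 and 183 to 81.8, 78.6 and 86.1 CPM (-1.14, SE 0.12, adjusted p = 2.32e-08) and under the KO label by 1.19 on the log2 scale. Cnbp, whose protein binds TOP mRNAs, fell in WT on day 1 (-0.94, SE 0.087, adjusted p = 4.23e-09), and was higher under the KO label on day 3 (0.68, SE 0.079, adjusted p = 2.66e-07). Rps6ka1, a kinase of ribosomal protein S6, was lower under the KO label on all 4 days (-0.41, -0.70, -0.81 and -0.74).

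The 78 mitochondrial ribosomal protein genes, which serve the separate ribosome of mitochondria, were lower during differentiation in most cases. In WT 50, 62 and 62 were lower and 1 higher on each of days 1, 3 and 6, with medians of -0.42, -0.48 and -0.56. For the KO label 48, 41 and 51 were lower and 2, 2 and 4 higher. The share called was 65.4%, 80.8% and 80.8% in WT, above that of all genes (54.7%, 58.2% and 63.6%), and 64.1%, 55.1% and 70.5% under the KO label, beside 52.3%, 57.6% and 70.0%. Between genotypes 2, 24, 49 and 37 were higher and 0, 2, 0 and 1 lower under the KO label. Of all genes 7.36%, 22.9%, 24.0% and 22.0% were higher. The share of the list called in both directions together was 2.56%, 33.3%, 62.8% and 48.7%, beside 17.5%, 42.2%, 43.2% and 42.9% of all genes. It was thus below that of all genes on days 0 and 1. On day 6, 18 were higher and 5 lower without WT replicate 3 (29.5% of the list), and without labelled KO day 1 replicate 2, 24 were higher and 1 lower on day 1 (32.1%). Both shares were below those of all genes in the same fits, 5664 of 14152 and 38.6%, whereas with all libraries the day 6 share was above it. The counts with all libraries stand beside 7, 14, 30 and 8 higher and 0, 3, 0 and 5 lower among the 85 members; the difference between the lists was not tested.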

How the data were processed

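The deposited tables hold estimated counts (whole numbers) and TPM per gene symbol, per the file headers and values. Bowtie2, RSEM and the mm10 build are named in the submitters' processing notes; the annotation and strand setting are not given in the sources used here. The deposited estimated counts were fitted with edgeR 4.0.16 in R 4.3.3 (TMM scaling, filterByExpr with a minimum count of 10 and a minimum total of 15, group means over all 23 libraries, quasi-likelihood test, Benjamini-Hochberg adjustment over 14187 genes, threshold 0.05). The TPM, which the authors computed, were tested with limma 3.58.1. Libraries held 22197606 to 23684077 counts. Standard errors were the log2 fold change divided by the root of F. Lengths and GC content came from GENCODE vM21 transcripts (GC known for 93.5% of tested genes), and the offsets remove each library's trend with either. The fit was tested on simulated data.

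The members and gene lists were chosen with earlier results of these data known. Named by rule were Runx1, paralogs with their partners, the 3 most positive and 3 most negative called members of each comparison, the extremes of level, members called alike on all 4 days, and the 2 called genes of largest change in each list. Other members named (those called on 3 days, in both genotypes or on every day, and the smallest call of day 3) were chosen after their values were seen. Of 23 symbols listed for RNA polymerase I, 20 were in the table. Replicate numbers come from the titles. Alternatives were other scalings, filters, thresholds and tools (DESeq2 1.42.0), a replicate block and each library left out; leaving out WT day 6 replicate 3 and labelled KO day 1 replicate 2 together, and giving list counts without either, was chosen after seeing the data. Some genes that the rule would name are not reported here.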

Additional observations from a re-analysis of the deposited data

Results flagged for a closer look

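By edgeR's interaction test the change over time differed between genotypes for none of the 85 members with all libraries, and for several genes of the other lists. On days 1, 3 and 6 the share called was 5%, 2.5% and 7.5% of biogenesis genes and 0%, 2.56% and 3.85% of mitochondrial ribosomal protein genes. It was at most 10% in the other lists. Of all genes 3.95%, 10.7% and 13.0% were called, so each list was near or below that share. Among ribosome biogenesis genes the log2 fold change from day 0 was higher under the KO label for Ddx21 by 0.56 (SE 0.16, adjusted p = 0.0437) and Nop56 by 0.56 (SE 0.16, adjusted p = 0.0437) on day 1, for Nhp2 by 0.54 (SE 0.17, adjusted p = 0.0367) on day 3, and for Rrp12 by 1.06 (SE 0.23, adjusted p = 0.00253) and Bysl by 0.67 (SE 0.18, adjusted p = 0.0146) on day 6. Nop10, chosen after its values were seen, was the only biogenesis gene called in the other direction, by -0.51 (SE 0.16, adjusted p = 0.0392) on day 6. The RNA polymerase I subunit gene Polr1a differed by 0.51 (SE 0.13, adjusted p = 0.00682) on day 6. Of the other TOP transcripts, Naca differed by 0.73 (SE 0.15, adjusted p = 0.00114) and Pabpc1 by -0.36 (SE 0.092, adjusted p = 0.00892) on day 6. Cnbp, whose protein binds TOP mRNAs, differed by 0.43 (SE 0.12, adjusted p = 0.0176) on day 3. Of the mitochondrial ribosomal protein genes, Mrpl58 differed by 0.56 (SE 0.16, adjusted p = 0.0273) and Mrps11 by 0.49 (SE 0.14, adjusted p = 0.0249) on day 3, and Mrpl1 by 0.67 (SE 0.16, adjusted p = 0.00513), Mrps23 by 0.45 (SE 0.13, adjusted p = 0.019) and Mrpl20, chosen after its values were seen, by -0.41 (SE 0.13, adjusted p = 0.0405) on day 6. Without labelled KO day 1 replicate 2 the day 1 values were 0.36 (adjusted p = 0.129) for Ddx21 and 0.50 (adjusted p = 0.0745) for Nop56, and neither was called. Without WT day 6 replicate 3 the day 6 call of Mrps23 was lost (0.33, adjusted p = 0.0986) and the others named so far were kept, Bysl at 0.57 (adjusted p = 0.0488) and Nop10 at -0.67 (adjusted p = 0.00342). Outside these lists Runx1 (0.51, SE 0.12, adjusted p = 0.00658) and Cd68 (1.95, SE 0.43, adjusted p = 0.00289) differed on day 6, Des on day 1 (-0.46, SE 0.13, adjusted p = 0.0471), and Myf5 on days 1, 3 and 6 (0.53, 1.32 and 1.09, adjusted p = 0.0075, 3.89e-08 and 3.27e-07).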

How the results depend on the processing

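Of 336 recomputed counts of called members, 241 stayed within 1.5 times the reported count. Of 1570 recomputed values of named genes, 1446 kept their direction and call, 124 kept the direction and lost the call, and none reversed; 48 of 76 gene results kept their call under every alternative run. The causes of the differences below were not tested.

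Fitting only the groups compared gave 24, 5 and 7 called members between genotypes on days 0, 1 and 6, 42 and 37 on days 1 and 3 in WT, and 14, 34 and 40 on days 1, 3 and 6 under the KO label. In these fits 28.5%, 28.0% and 42.4%, 67.2% and 71.1%, and 42.8%, 66.5% and 76.4% of all genes were called. DESeq2 gave 11 on day 0 between genotypes and 1 in the day 6 interaction (18.9% and 15.8% of all genes). On log2(TPM + 1) the counts were 16 and 25 between genotypes on days 3 and 6, 36 and 57 on days 3 and 6 in WT, 32 and 41 under the KO label, and 4 in the day 6 interaction, where 40.8%, 43.2%, 55.6%, 61.9%, 53.5%, 66.5% and 16.1% of all genes were called. On log2(TPM + 0.1) they were 16, 25, 36, 58, 32, 41 and 2 in the same order (40.5%, 42.0%, 56.1%, 62.1%, 54.7%, 67.2% and 14.1% of all genes), and the median of all genes moved by up to 0.16. The length offset gave 25 on day 6 between genotypes, 32 and 52 on days 3 and 6 in WT, 36 on day 6 under the KO label and 1 in the day 6 interaction (45.7%, 60.5%, 65.9%, 71.3% and 15.5% of all genes). The GC offset gave 36 on day 6 under the KO label and 1 in that interaction (72.6% and 18.1%). Library size alone, TMM without the members and a mean count of at least 50 each gave 1 in it (13.0%, 13.4% and 16.0%), and no filter gave 2 in the day 1 interaction (3.08%).

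At an adjusted p under 0.01 the counts were 1, 8, 15 and 6 between genotypes on days 0, 1, 3 and 6, 8 and 19 on days 1 and 6 in WT, and 15, 8 and 15 on days 1, 3 and 6 under the KO label, beside 10.2%, 30.2%, 31.3% and 31.7%, 43.8% and 53.1%, and 40.8%, 47.1% and 60.9% of all genes. With an absolute log2 fold change of at least 0.5 they were 0, 3, 2 and 0 between genotypes, 5, 4 and 11 in WT, and 6, 5 and 5 under the KO label, beside 10.3% to 24.1%, 37.9% to 47.6% and 32.0% to 51.7% of all genes. Without WT day 6 replicate 3 and labelled KO day 1 replicate 2 together, an alternative chosen after seeing the data, they were 23 and 34 on days 0 and 6 between genotypes, 30, 32 and 65 in WT, 35, 29 and 39 under the KO label, and 1 and 26 in the interactions of days 3 and 6. Of all genes 26.9% and 49.0%, 61.7%, 65.5% and 67.9%, 55.7%, 64.5% and 74.9%, and 18.6% and 21.7% were then called.

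With each library left out in turn, between 0 and 9, 8 and 20, 15 and 37, and 9 and 21 members were called between genotypes on days 0, 1, 3 and 6, where 8.69% to 15.6%, 34.2% to 42.6%, 36.4% to 39.1% and at least 36.5% of all genes were. In WT the ranges were 8 to 16, 10 to 15 and 16 to 57 on days 1, 3 and 6, and under the KO label 16 to 27, 10 to 15 and 17 to 23, beside 41.4% to 62.0% and 44.7% to 67.2% of all genes over the 3 days. In the interactions they were 0 to 3, 0 to 0 and 0 to 15, beside 1.02% to 6.48%, 5.69% to 10.1% and 8.13% to 13.2%. Leaving out a WT day 0 library leaves 1, which is then assumed to vary like the other groups.

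Replicate numbers did not pair the libraries: the mean correlation of same-numbered deviations lay between -0.09 and 0.05. With the replicate number as a block 7, 16, 30 and 10 members were called between genotypes, 17, 17 and 29 in WT, 19, 16 and 23 under the KO label and 0 in each interaction, beside 15.7%, 41.1%, 42.5% and 42.0%, 53.7%, 57.3% and 62.7%, 51.3%, 57.0% and 69.5%, and 3.11%, 9.98% and, on day 6, 1699 of 14187, of all genes. With the replicate block and the length offset the counts were 19 and 24 on days 3 and 6 between genotypes, 32 and 52 on days 3 and 6 in WT, 36 on day 6 under the KO label and 1 in the day 6 interaction (43.9%, 44.9%, 59.6%, 65.1%, 70.9% and 14.6% of all genes). With the replicate block and the GC offset they were 48 and 36 on day 6 in WT and under the KO label, and 2 in the day 6 interaction (66.7%, 72.2% and 17.1%).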
